A study of Homo sapiens with 18 samples.

Results

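The 10 genes described here encode actin-binding and contractile proteins: the troponin TNNT2, the smooth muscle proteins TAGLN, MYL9, ACTA2 and CNN1, the calponin CNN2, the tropomyosins TPM1 and TPM2, caldesmon (CALD1) and the actin crosslinker ACTN1. They were taken by symbol from the 43236 gene symbols of the deposited count table, and all 10 had a row. Expression was measured in NCI-H1693, an established human lung cancer cell line described in the labels as SMARCA4-deficient. The cells were kept in 50 nM PRT3789 or in the solvent DMSO for 6, 48 or 72 h, with 3 libraries in each of the 6 groups. PRT3789 is a degrader selective for SMARCA2, the remaining ATPase of the SWI/SNF chromatin remodelling complexes, so every group, the DMSO controls included, shares the SMARCA4 deficiency and comes from 1 cell line. Library totals ran from 23154484 to 31094797 counts, and that of DMSO 48 h replicate 3 was exactly 27000000, for which the sources used here give no reason. The labels do not say whether the 3 libraries of a group were separate cultures, so their spread may be technical.

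Contraction in muscle depends on myosin pulling on actin filaments, and the proteins here sit on those filaments. In striated muscle, troponin and tropomyosin make the switch that calcium opens, whereas in smooth muscle and other cells phosphorylation of the myosin light chain starts the pull and calponins and caldesmon restrain it. Many of these genes are textbook targets of serum response factor (SRF), which binds a sequence called the CArG box and works with the actin-sensing cofactors MRTFA and MRTFB or, in muscle, with MYOCD. The members were chosen with the effects of PRT3789 in these libraries known. Their values under PRT3789 against DMSO are thus given as a description, with no p-value. Where the text or a plot says that such a value was called in the fit over all genes, nothing is read from the call. Tests are given for changes with time within 1 treatment and for other genes. The comparisons over time share libraries with those of PRT3789 against DMSO. For the members their p-values are thus not independent of the choice. The lists of other genes were also chosen with earlier results of these data known, and most genes named from them had the smallest p. Their p-values under PRT3789 against DMSO are thus no independent evidence of an effect.

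The genes are named for contraction, and many markers of muscle cells were at or near 0 in this line, while TAGLN and some troponin genes described below were not. Of 8 cardiac muscle markers none passed the filter on low counts, MYL2 and ACTC1 had a count of 0 in all 18 libraries, and the 8 markers summed to at most 0.313 CPM (counts normalised to the scaled library total) in any library, a PRT3789 library of 6 h. The smooth muscle markers MYH11, LMOD1, DES and ACTG2 each averaged at most 0.15 CPM in any group. The list of 8 smooth muscle and pericyte markers summed to 239 to 274 CPM in PRT3789 and 94.7 to 141 CPM in DMSO at 48 h, and to 244 to 269 CPM in PRT3789 and 139 to 155 CPM in DMSO at 72 h, nearly all of it from the receptor NOTCH3. All 8 epithelial markers passed the filter. They summed to 5110 to 5320 CPM in PRT3789 and 11100 to 11900 CPM in DMSO at 48 h, and to 4480 to 4700 CPM in PRT3789 and 9930 to 10800 CPM in DMSO at 72 h. KRT8 and KRT18 made most of these sums. KRT7 averaged 29.8 CPM in PRT3789 and 25.3 CPM in DMSO at 48 h, and 22.7 CPM in both at 72 h. KRT19 averaged 326 CPM in PRT3789 and 373 CPM in DMSO at 48 h, but 333 CPM and 318 CPM at 72 h. The remaining epithelial markers had lower means in PRT3789 at both times. The part of these markers in the differences below was not tested. In RNA from whole cultures, fewer cells of a kind and less RNA per cell cannot be told apart.

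Promoter windows of 250 bases before a transcription start site were available from RefSeq (GRCh38.p14) for 8 of the 10 genes, at 16 start sites, and 5 are shown: the member with the largest fold difference from DMSO (TNNT2), the windows with a CArG box (CNN2 and ACTN1), and the tropomyosins. Motifs were searched on both strands: the CArG box, the TEAD motif CATTCC and the AP-1 motif TGANTCA. The CArG box was searched only in its strict form, CCWWWWWWGG, with W for A or T. Looser forms of the motifs were not searched, so a window without a match may still hold one. The CArG box occurred in 1.16% of 35116 start site windows of all genes, CATTCC in 11.9% and TGANTCA in 6.57%. The CArG box was found at 2 of the 16 start sites. One was the single window of CNN2, where it began 89 bases before the start. The other was 1 of the 4 windows of ACTN1, where it began 171 bases before the start, with CATTCC beginning 154 bases before the same start. CATTCC was found at 5 of the 16 start sites, in TNNT2, ACTA2, CALD1 and ACTN1, and TGANTCA at 1 start site of CALD1. The windows of TPM1, TPM2 and CNN1 held none of these motifs. A match describes letters only and shows no binding. Capitals below mark the matches, and each sequence runs 5′ to 3′ on the strand of its gene.
TNNT2, chr1:201377681-201377930, minus strand, CATTCC in capitals: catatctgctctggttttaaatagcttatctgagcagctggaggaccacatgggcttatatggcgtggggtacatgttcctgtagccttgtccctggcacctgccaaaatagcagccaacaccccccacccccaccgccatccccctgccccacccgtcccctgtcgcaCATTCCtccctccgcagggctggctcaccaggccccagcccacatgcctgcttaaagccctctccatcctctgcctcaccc
CNN2, chr19:1026358-1026607, plus strand, CArG box in capitals: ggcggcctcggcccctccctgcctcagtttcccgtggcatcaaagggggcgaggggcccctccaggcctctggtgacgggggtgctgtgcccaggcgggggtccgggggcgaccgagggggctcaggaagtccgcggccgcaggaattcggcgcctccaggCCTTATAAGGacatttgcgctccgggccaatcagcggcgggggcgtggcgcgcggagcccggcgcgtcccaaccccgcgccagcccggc
ACTN1, chr14:68977567-68977816, minus strand, CArG box and CATTCC in capitals: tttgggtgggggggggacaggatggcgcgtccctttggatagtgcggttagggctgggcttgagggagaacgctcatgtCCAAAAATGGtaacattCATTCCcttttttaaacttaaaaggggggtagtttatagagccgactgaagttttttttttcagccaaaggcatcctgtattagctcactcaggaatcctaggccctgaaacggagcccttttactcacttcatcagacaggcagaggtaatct
TPM1, chr15:63048239-63048488, plus strand, no match: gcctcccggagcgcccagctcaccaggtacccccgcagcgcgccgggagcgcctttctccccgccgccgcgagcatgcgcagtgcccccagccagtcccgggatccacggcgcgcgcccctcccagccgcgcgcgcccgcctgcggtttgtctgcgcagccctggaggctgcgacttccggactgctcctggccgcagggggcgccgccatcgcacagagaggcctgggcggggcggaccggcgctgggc
TPM2, chr9:35689926-35690175, minus strand, no match: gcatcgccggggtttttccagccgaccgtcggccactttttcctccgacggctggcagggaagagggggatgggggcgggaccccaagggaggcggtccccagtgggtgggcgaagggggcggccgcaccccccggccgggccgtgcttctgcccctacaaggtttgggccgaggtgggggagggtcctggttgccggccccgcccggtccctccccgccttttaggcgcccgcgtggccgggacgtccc
The ACTN1 window with both motifs had a GC content of 48%, against 75.2% in the CNN2 window, 60.4% in the TNNT2 window, 78.4% in the TPM1 window and 74.4% in the TPM2 window. All 5 windows shown precede start sites that lie inside the annotated gene. Only the ACTN1 window shown is not the one nearest to the start of the canonical transcript. The ACTN1 window nearest to that start held none of these motifs.

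The members were sorted by whether the libraries of PRT3789 and DMSO lay apart at both 48 and 72 h. TNNT2, TAGLN, TPM1 and ACTN1 were lower in PRT3789 without overlap at both times, and TPM2 and CALD1 were higher. ACTA2, CNN1, CNN2 and MYL9 overlapped at 1 or both times. This sorting is not one by size. ACTA2, with log2 fold changes of 0.32 and 0.42, and CNN2, with -0.27 and -0.34, each kept 1 direction at 48 and 72 h. CALD1 had 0.39 and 0.48. The fit covered 16291 genes in edgeR's quasi-likelihood test, and genes with a p under 0.05 after Benjamini-Hochberg adjustment were called. Of the members, 9 were tested and CNN1 was left out for low counts. At 48 h, 2 of the 9 were called higher and 5 lower, where 21.2% and 20.9% of all tested genes were called in those directions. At 72 h, 2 were called higher and 4 lower, beside 21.3% and 22% of all tested genes. At 6 h none of the 9 was called, beside 4.33% of all tested genes (705 genes, or 1083 without DMSO 6 h replicate 1). In that comparison 1 member, TPM1, had an unadjusted p under 0.05, and DESeq2 called 1 and limma-voom called 0. Because the members were chosen on these contrasts, nothing is read from these counts. The libraries of both treatments lay apart without overlap for 1 of the 10 genes at 6 h, 7 at 48 h and 8 at 72 h, beside 14.7%, 56.2% and 61.9% of all tested genes. The median log2 fold change (log2FC) of the 9 was 0.01 at 6 h, -0.28 at 48 h and -0.34 at 72 h, beside -0.01, 0.01 and 0.01 over all tested genes.

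**Figure D1:**
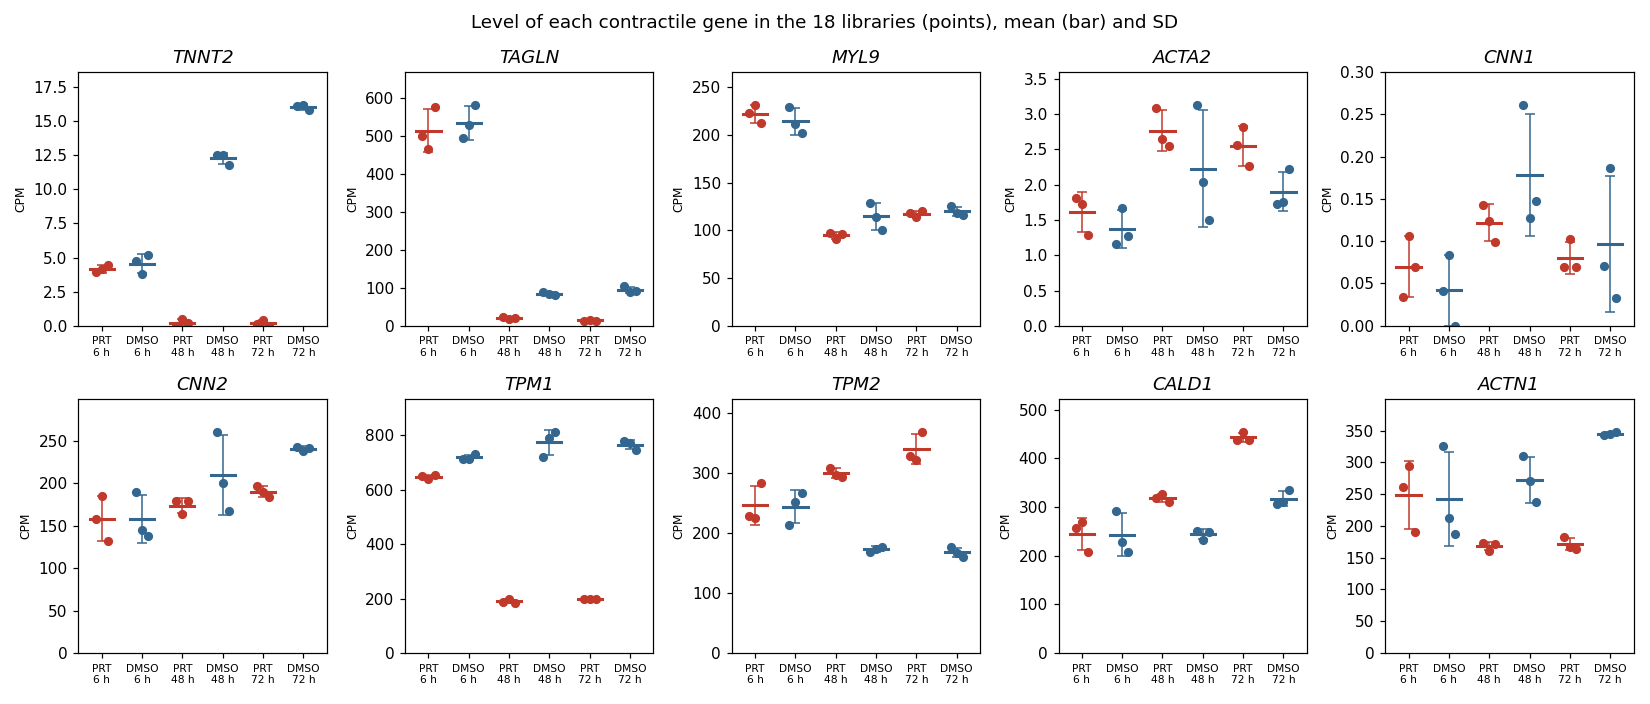
Level of each of the 10 genes in all 18 libraries, in TMM-scaled CPM (linear axes starting at 0, a different scale in each panel). Points are libraries, bars are the mean and the SD of 3 libraries, red is PRT3789 and blue is DMSO. TNNT2 averaged 0.194 CPM in PRT3789 and 16 CPM in DMSO at 72 h, while TPM2 averaged 340 CPM in PRT3789 and 168 CPM in DMSO.

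TNNT2 encodes cardiac troponin T, the subunit that ties the troponin complex to tropomyosin. The gene lies on chromosome 1, 201359008 to 201377764, minus strand (GRCh38, GENCODE release 44; 17 exons in the canonical transcript). At 6 h it had 114, 118 and 129 counts in PRT3789, against 115, 90 and 109 counts in DMSO. At 48 h it had 0, 12 and 6 counts in PRT3789, against 336, 391 and 321 counts in DMSO. At 72 h it had 4, 13 and 0 counts in PRT3789, against 458, 433 and 475 counts in DMSO. The groups overlapped at 6 h and lay far apart at both later times, with each PRT3789 library at 13 counts or fewer. In scaled units the level was 0.232 ± 0.25 CPM in PRT3789 and 12.3 ± 0.411 CPM in DMSO at 48 h, and 0.194 ± 0.226 CPM in PRT3789 and 16 ± 0.213 CPM in DMSO at 72 h (SD, n = 3 each). A count of 0 allows up to 0.107 CPM in the 48 h library and 0.104 CPM in the 72 h library, at 3 counts and for counting error only. The log2FC was -0.12 ± 0.29 (SE) at 6 h, -5.77 ± 0.42 at 48 h and -6.33 ± 0.42 at 72 h, or 54.8-fold and 80.2-fold lower at the later times. With counts this low in PRT3789 the fold is loosely set: over the 14 alternative analyses it lay between -6.85 and -5.20 at 48 h and between -7.75 and -5.75 at 72 h on the log2 scale. The span of a long noncoding RNA gene, ENSG00000286600, touches all 17 exons on the same strand. Whether its own exons overlap those of TNNT2 was not checked, and reads of any shared sequence cannot be told apart by strand.

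TNNT2 also changed with time in DMSO. It rose 2.69-fold by 48 h, to 12.3 ± 0.411 CPM against 4.56 ± 0.716 CPM at 6 h (log2FC 1.43 ± 0.28 SE, edgeR adjusted p = 0.000819). All 3 libraries of 48 h lay above all 3 of 6 h. At 72 h it was at 16 ± 0.213 CPM, again above every 48 h library, but this step was not called (log2FC 0.39 ± 0.25, adjusted p = 0.392; 0.0257 with the compared groups fitted apart). In PRT3789 the 72 h and 48 h libraries overlapped (log2FC -0.17 ± 0.78, adjusted p = 0.966). The low level in PRT3789 thus stands against a rising level in DMSO, and it was also below the 4.19 ± 0.292 CPM of the 6 h PRT3789 libraries.

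TAGLN encodes transgelin (SM22), an actin-bundling protein that marks smooth muscle, on chromosome 11, 117199370 to 117207464, plus strand. At 6 h it was among the higher members, with 500.8, 465.3 and 576.0 CPM in PRT3789 and 494.1, 528.5 and 581.9 CPM in DMSO. At 48 h it was at 24.19, 19.10 and 20.42 CPM in PRT3789, against 89.85, 84.77 and 80.08 CPM in DMSO. At 72 h it was at 13.22, 16.06 and 13.64 CPM in PRT3789, against 103.6, 88.65 and 91.07 CPM in DMSO. The groups overlapped at 6 h and were apart at both later times. The log2FC was -0.06 ± 0.10 (SE), -2.0 ± 0.11 and -2.72 ± 0.11 at 6, 48 and 72 h, or 3.99-fold lower at 48 h and 6.60-fold lower at 72 h.

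TAGLN fell between 6 and 48 h without the drug as well. In DMSO it fell 6.30-fold, to 84.9 ± 4.89 CPM at 48 h against 535 ± 44.2 CPM at 6 h (SD, n = 3 each; log2FC -2.66 ± 0.11 SE, edgeR adjusted p = 6.05e-11). The step from 48 to 72 h in DMSO was not called (log2FC 0.15 ± 0.10, adjusted p = 0.4), and these libraries overlapped. In PRT3789 it fell again, to 14.3 ± 1.53 CPM at 72 h against 21.2 ± 2.64 CPM at 48 h, with no overlap (log2FC -0.57 ± 0.11, adjusted p = 0.0139). That call was lost when PRT3789 48 h replicate 1 (adjusted p = 0.0952) or PRT3789 72 h replicate 1 or 3 (0.0922 for either) was left out. TAGLN overlaps PCSK7 on the opposite strand, and the libraries are stranded. The span of ENSG00000280143, on the same strand, also touches 1 canonical exon of TAGLN. Its own exons were not compared, and reads of any shared sequence cannot be told apart by strand.

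MYL9 encodes the regulatory light chain of smooth muscle and nonmuscle myosin (chromosome 20, 36541497 to 36551447, plus strand). It fell with time in DMSO, 1.87-fold, to 115 ± 14.1 CPM at 48 h against 214 ± 14.0 CPM at 6 h (SD, n = 3 each; log2FC -0.90 ± 0.08 SE, edgeR adjusted p = 2.58e-07). Under the drug MYL9 was at 97.39, 90.82 and 95.64 CPM in PRT3789 and at 128.9, 114.4 and 100.6 CPM in DMSO at 48 h, which is lower without overlap (log2FC -0.28 ± 0.08). At 72 h the groups overlapped, with 118.4, 114.2 and 119.9 CPM in PRT3789 and 125.4, 118.5 and 116.1 CPM in DMSO (log2FC -0.03 ± 0.08, 95% interval -0.18 to 0.12). The 48 h difference was -0.18 without DMSO 48 h replicate 1, and -0.22 with total counts as library sizes, and in neither was it still called. Within PRT3789 all 72 h libraries lay above all 48 h libraries, a step that was not called (log2FC 0.31 ± 0.08, adjusted p = 0.059). It was called with DESeq2 (0.00893), with the replicate block over all groups (0.0411) and with the compared groups fitted apart (6.27e-05).

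The other smooth muscle genes were barely expressed. ACTA2, smooth muscle alpha-actin (chromosome 10, 88935074 to 88991339, minus strand), had 27 to 87 counts per library. At 72 h its level was 2.568, 2.824 and 2.261 CPM in PRT3789 and 1.725, 1.757 and 2.227 CPM in DMSO. Here every PRT3789 library was above every DMSO library, at 6 and 48 h the groups overlapped, and the log2FC was 0.23 ± 0.25 (SE), 0.32 ± 0.23 and 0.42 ± 0.23 at 6, 48 and 72 h. The 95% interval at 72 h ran from -0.03 to 0.87. Leaving out 1 library moved the 48 h value between 0.10 without DMSO 48 h replicate 3 and 0.63 without DMSO 48 h replicate 1, where it was called. In DMSO it rose 1.62-fold by 48 h, to 2.23 CPM against 1.37 CPM at 6 h, although the libraries overlapped (log2FC 0.69 ± 0.25, edgeR adjusted p = 0.0349). This call was lost without DMSO 48 h replicate 1 (log2FC 0.37, adjusted p = 0.241), without DMSO 6 h replicate 1 (0.0803) and without DMSO 6 h replicate 3 (0.0898), and also with limma-voom (0.0702) and with the compared groups fitted apart (0.128). Coding sequences of the actins are nearly alike, so these few counts are uncertain beside other actins, of which ACTB averaged 2210 CPM in PRT3789 and 2920 CPM in DMSO at 72 h. CNN1, calponin of smooth muscle (chromosome 19, 11538767 to 11550323, plus strand), had at most 7 counts in any library. Its summed counts were 6 in PRT3789 and 3 in DMSO at 6 h, 10 in PRT3789 and 15 in DMSO at 48 h, and 7 in PRT3789 and 8 in DMSO at 72 h, too few to compare.

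CNN2 encodes the calponin of nonmuscle cells (chromosome 19, 1026586 to 1039068, plus strand). Its level at 72 h was 197.4, 190.3 and 183.8 CPM in PRT3789, against 243.5, 237.7 and 242.3 CPM in DMSO. At 48 h it was at 179.2, 163.6 and 179.0 CPM in PRT3789, against 260.4, 200.9 and 167.7 CPM in DMSO. The groups were apart at 72 h and overlapped at 48 h through 1 DMSO library. The log2FC was 0.00 ± 0.14 (SE), -0.27 ± 0.14 and -0.34 ± 0.14 at 6, 48 and 72 h, not called at any time. At 72 h it was called with DESeq2 and with the 72 h groups fitted apart, with log2FC -0.35 in each, and with the replicate block within each time (-0.34). At 48 h it was -0.08 without DMSO 48 h replicate 1 and -0.41 without DMSO 48 h replicate 3, where it was called. In DMSO CNN2 rose 1.33-fold by 48 h (log2FC 0.41 ± 0.14, edgeR adjusted p = 0.0341). That call was lost without DMSO 48 h replicate 1 (log2FC 0.22, adjusted p = 0.23), without DMSO 6 h replicate 2 (0.107) and without DMSO 6 h replicate 3 (0.125), and also with no filter (0.0644) and with the compared groups fitted apart (0.124).

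The tropomyosins lie end to end along the actin filament, and the 2 members stood on opposite sides of DMSO. TPM1 (chromosome 15, 63042620 to 63071915, plus strand) was at 188.1, 196.8 and 185.4 CPM in PRT3789, against 721.7, 788.9 and 811.2 CPM in DMSO at 48 h. At 72 h it was at 197.7, 199.9 and 198.9 CPM in PRT3789, against 779.3, 771.8 and 746.1 CPM in DMSO. The groups were far apart, and the log2FC of TPM1 was -2.03 ± 0.06 (SE) at 48 h and -1.95 ± 0.06 at 72 h, or 4.07-fold and 3.85-fold lower. At 6 h it was at 648.8, 640.8 and 652.3 CPM in PRT3789 and at 713.0, 712.5 and 729.7 CPM in DMSO. This was lower without overlap, as 8.35% of all tested genes were at 6 h, by a log2FC of -0.15 ± 0.06 that edgeR and limma-voom did not call and DESeq2 did. TPM1 was not called over time in DMSO, with a log2FC of 0.11 ± 0.06 at 48 h against 6 h (edgeR adjusted p = 0.15) and of -0.02 ± 0.06 at 72 h against 48 h (adjusted p = 0.899). The first step was called with DESeq2 (log2FC 0.13, adjusted p = 0.0136) and with total counts as library sizes (0.22, adjusted p = 0.0106).

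TPM2 (chromosome 9, 35681992 to 35690056, minus strand) was at 309.8, 298.0 and 293.7 CPM in PRT3789, against 168.0, 174.3 and 177.9 CPM in DMSO at 48 h. The levels at 72 h were 328.7, 322.9 and 368.7 CPM in PRT3789, against 176.4, 167.4 and 160.8 CPM in DMSO. All PRT3789 libraries were above all DMSO libraries at both times, and at 6 h the groups overlapped (246 ± 32.7 CPM in PRT3789 and 244 ± 27.2 CPM in DMSO). The log2FC of TPM2 was 0.01 ± 0.09 (SE), 0.79 ± 0.09 and 1.02 ± 0.09 at 6, 48 and 72 h, or 1.73-fold and 2.02-fold higher at the later times. In DMSO alone TPM2 fell 1.41-fold, to 173 ± 4.99 CPM at 48 h against 244 ± 27.2 CPM at 6 h (log2FC -0.50 ± 0.09, edgeR adjusted p = 0.000531). Within PRT3789 the step from 48 to 72 h was not called (log2FC 0.18 ± 0.09, adjusted p = 0.45; 0.011 with the compared groups fitted apart), although the libraries did not overlap.

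Per kilobase of the canonical transcript, TPM1 had the highest level of the 10 genes in every DMSO group and in PRT3789 at 6 h, whereas TPM2 had the highest level in PRT3789 at 48 and 72 h. The ratio of TPM2 to TPM1 per kilobase was 0.389 ± 0.0494 in PRT3789 and 0.347 ± 0.0354 in DMSO at 6 h (SD, n = 3 each). It was 1.61 ± 0.0702 in PRT3789 and 0.229 ± 0.00814 in DMSO at 48 h, and 1.75 ± 0.132 in PRT3789 and 0.224 ± 0.00586 in DMSO at 72 h. Every PRT3789 library of 48 and 72 h had more TPM2 than TPM1 by this measure, and none of the other 12 libraries did. The ratio rests on canonical lengths of 1190 bases for TPM2 and 1217 bases for TPM1. Both genes make several isoforms, and the counts are per gene, so the ratio does not say which isoforms were present. Of the other tropomyosin genes, TPM4 fell 1.79-fold at 48 h (155 CPM in PRT3789 and 278 CPM in DMSO; edgeR adjusted p = 1.05e-07), and TPM3 was not called (736 CPM in PRT3789 and 711 CPM in DMSO; log2FC 0.05 ± 0.08, adjusted p = 0.648).

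**Figure D2:**
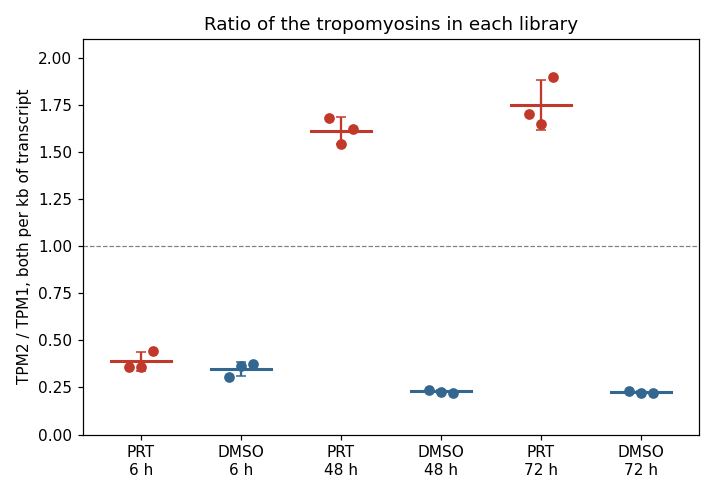
Ratio of TPM2 to TPM1 in each library, both in CPM per kilobase of the canonical transcript (vertical axis, linear, from 0; the dashed line marks a ratio of 1). Points are libraries, bars are the mean and the SD of 3 libraries, red is PRT3789 and blue is DMSO. PRT3789 libraries lie at 1.54 to 1.68 at 48 h and at 1.65 to 1.90 at 72 h, against 0.223 to 0.238 and 0.220 to 0.231 in DMSO.

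CALD1 encodes caldesmon, which blocks myosin on actin and stabilizes the filament (chromosome 7, 134744252 to 134970729, plus strand). It was at 319.3, 327.6 and 311.0 CPM in PRT3789, against 251.4, 232.0 and 248.1 CPM in DMSO at 48 h. After 72 h the levels were 437.7, 453.7 and 437.7 CPM in PRT3789, against 307.1, 311.3 and 334.1 CPM in DMSO. All PRT3789 libraries were above all DMSO libraries at both times, by a log2FC of 0.39 ± 0.11 (SE) at 48 h and 0.48 ± 0.11 at 72 h, or 1.31-fold and 1.40-fold higher. The level was also higher at 72 h than at 48 h in both treatments, without overlap. In PRT3789 edgeR called this rise (443 ± 9.24 CPM at 72 h against 319 ± 8.28 CPM at 48 h; log2FC 0.47 ± 0.11, adjusted p = 0.033). In DMSO the step was of similar size and edgeR did not call it (318 ± 14.6 CPM at 72 h against 244 ± 10.4 CPM at 48 h; log2FC 0.38 ± 0.11, adjusted p = 0.109), whereas DESeq2 (0.0304) and the compared groups fitted apart (0.0108) did. The call in PRT3789 was lost with total counts as library sizes (adjusted p = 0.081) and when any 1 of its 6 libraries was left out (0.111 to 0.14).

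ACTN1 encodes alpha-actinin, which crosslinks actin filaments in stress fibres and at adhesions (chromosome 14, 68874128 to 68979440, minus strand). At 48 h it was at 173.2, 161.0 and 171.7 CPM in PRT3789, against 309.8, 270.0 and 237.8 CPM in DMSO. At 72 h it was at 182.6, 167.6 and 163.9 CPM in PRT3789, against 343.1, 344.1 and 347.4 CPM in DMSO. The groups were apart at both times, by a log2FC of -0.69 ± 0.17 (SE) at 48 h and -1.01 ± 0.17 at 72 h, or 1.62-fold and 2.01-fold lower. In PRT3789 the libraries of 72 and 48 h overlapped (171 ± 9.89 CPM at 72 h against 169 ± 6.65 CPM at 48 h; log2FC 0.02 ± 0.17, edgeR adjusted p = 0.979). In DMSO all 72 h libraries were above all 48 h libraries, which was not called (log2FC 0.34 ± 0.17, adjusted p = 0.275; 0.0362 with the compared groups fitted apart).

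**Figure D3:**
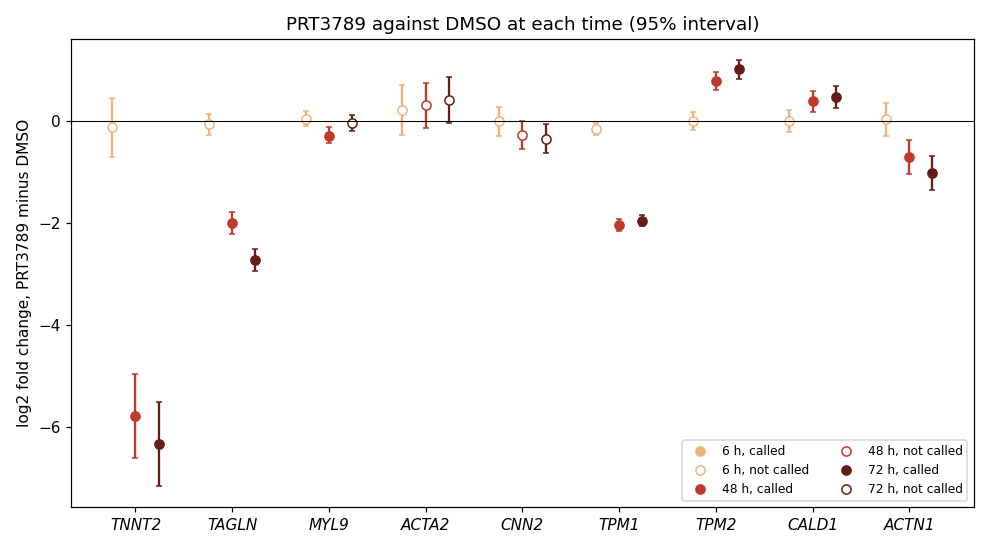
Log2 fold change of PRT3789 against DMSO (vertical axis) for the 9 tested members at 6, 48 and 72 h, left to right and light to dark in each gene. Points are edgeR estimates with their 95% interval, filled where the gene was called over all 16291 tested genes and open where it was not. TNNT2 lies at -6.33 and TPM2 at 1.02 at 72 h, and all 6 h points are open and between -0.15 and 0.23.

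The 6 h libraries of 1 group differed more than the later ones, in a way that over all genes went with transcript length. Over 12295 genes, the Spearman correlation of transcript length with how far a library lay from the average of its time was 0.359, 0.558 and -0.569 in the PRT3789 libraries of 6 h, and 0.583, -0.438 and -0.55 in the DMSO libraries. At 48 h this correlation was 0.278, 0.165 and 0.279 in PRT3789, against 0.0194, -0.373 and -0.281 in DMSO, with no overlap of the treatments. At 72 h it was -0.000661, 0.13 and -0.0996 in PRT3789, and -0.148, -0.0765 and 0.185 in DMSO. At 6 h the members did not all follow their length. ACTN1, with a canonical transcript of 3722 bases, was lowest in replicate 3 of both groups, with 260.6, 294.3 and 190.2 CPM in PRT3789 and 326.3, 212.1 and 187.5 CPM in DMSO. CALD1 (5011 bases) and CNN2 (2149 bases) were likewise lowest in replicate 3 of both groups, while TAGLN (3786 bases) and TPM2 (1190 bases) were highest there. TPM1 stayed within narrow limits: the SD of its log2 CPM was 0.0131 in PRT3789 and 0.0196 in DMSO at 6 h, beside a median over tested genes of 0.188 and 0.211. The part of this trend in the values of any time, and in the differences between PRT3789 and DMSO, was not tested. Without DMSO 6 h replicate 1, ACTN1 was called higher in DMSO at 48 h than at 6 h (log2FC 0.48, edgeR adjusted p = 0.00895), where all libraries together gave 0.17 ± 0.17 (adjusted p = 0.454).

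Over the whole time course in DMSO, the members changed mostly between 6 and 48 h. Of the 9 tested, 3 rose (TNNT2, ACTA2 and CNN2) and 3 fell (TAGLN, MYL9 and TPM2), beside 17.1% and 20.1% of all tested genes. The libraries of 48 and 6 h lay apart for 5 of the 10 genes, beside 39.4% of tested genes. The 5 include CNN1, which was left untested for its low counts. Between 48 and 72 h in DMSO edgeR called none, beside 0.54% of all tested genes, while 1 member had an unadjusted p under 0.05, and DESeq2 called 1 and limma-voom called 0. Between 48 and 72 h in PRT3789, 1 rose (CALD1) and 1 fell (TAGLN), beside 0.994% and 0.448% of all tested genes. These small shares rest on every library: leaving out 1 gave 19 to 83 called genes in DMSO in place of 88, and 91 to 121 in PRT3789 in place of 235. Libraries of 72 and 48 h lay apart for 3 of the 10 genes in DMSO and for 6 in PRT3789, beside 30.1% and 30.4% of tested genes. These comparisons share libraries with each other and with the comparisons of PRT3789 with DMSO. Side by side at 48 h, TNNT2 had a log2FC of -5.77 against DMSO and of 1.43 over time in DMSO, TAGLN of -2.0 and -2.66, and TPM2 of 0.79 and -0.50.

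**Figure D4:**
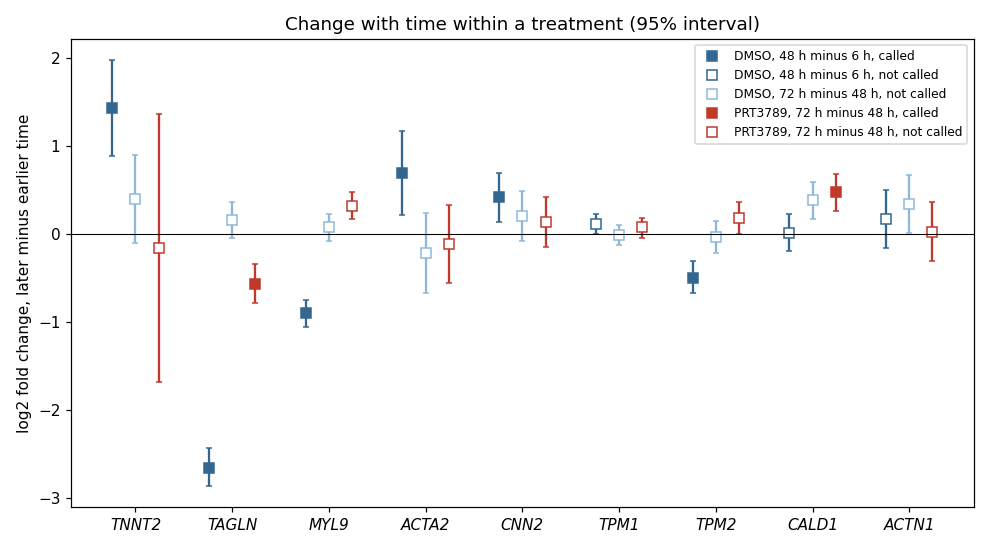
Log2 fold change with time within 1 treatment (vertical axis, later minus earlier time) for the 9 tested members: DMSO 48 h against 6 h (dark blue), DMSO 72 h against 48 h (light blue) and PRT3789 72 h against 48 h (red). Points are edgeR estimates with their 95% interval, filled where called. TAGLN at -2.66 and TNNT2 at 1.43 in DMSO are the ends of the range, and no light blue point is filled.

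By Pearson correlation of log2 CPM over the 18 libraries, which share treatment and time, the genes most like each member were looked up among 10781 genes with a mean of at least 5 CPM. They are a description of levels. TPM1 was most like CSRP1, a LIM protein of the actin cytoskeleton (r = 0.997), then CDA, cytidine deaminase (0.992), and VTCN1, an immune checkpoint ligand (0.992). CSRP1 stood at 98.4 ± 3.5 CPM in PRT3789 and 281 ± 8.59 CPM in DMSO at 48 h, and VTCN1 at 0.433 ± 0.241 CPM in PRT3789 and 37.6 ± 1.61 CPM in DMSO. ACTN1 was most like FLNA (0.988), which encodes the crosslinker filamin A, then its paralog ACTN4 (0.987) and the RNA-binding HNRNPUL1 (0.979). Spread within a group also enters these correlations. In PRT3789 at 6 h, ACTN1 ran from 190 to 294 CPM and FLNA from 1020 to 2180 CPM. The part of this spread in the correlations was not tested. CALD1 was most like the kinase gene MAP3K20 (0.98), then FLNC (0.963), which encodes filamin C, and the deubiquitinase gene USP36 (0.956). FLNC stood at 334 ± 27.6 CPM in PRT3789 and 127 ± 23.1 CPM in DMSO at 48 h. TPM2 was most like the transcriptional repressor gene HES4 (0.98), then DGAT2 of triglyceride synthesis (0.968) and NFKBIB, an inhibitor of NF-kB (0.967). TAGLN was most like HJURP, AURKA and NCAPH (0.995 each), which encode a centromere chaperone, a mitotic kinase and a condensin subunit. HJURP stood at 31.3 ± 0.752 CPM in PRT3789 and 52.9 ± 1.22 CPM in DMSO at 48 h, and at 95.5 ± 2.58 CPM in PRT3789 and 104 ± 3.92 CPM in DMSO at 6 h. TNNT2 was most like PSG8 (0.968), a pregnancy-specific glycoprotein gene whose near-identical relatives can share its reads, then WLS, the carrier of Wnt ligands (0.967), and GPD1L (0.965).

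The rest of the pathway was described from 3 lists without the members. Of 34 further smooth muscle contractile and actin-binding genes, 28 were tested. None was called at 6 h, 5 rose and 13 fell at 48 h, and 5 rose and 14 fell at 72 h in PRT3789 against DMSO. With the compared groups fitted apart, 8 rose at 48 h and 9 at 72 h. The background shares are those given above, 21.2% and 20.9% of all genes at 48 h and 21.3% and 22% at 72 h. The median log2FC of the 28 was -0.02, -0.41 and -0.41 at 6, 48 and 72 h, beside -0.01, 0.01 and 0.01 over all tested genes. At 6 h 4 of them had an unadjusted p under 0.05, and DESeq2 called 1 and limma-voom 0. CSRP1 fell 2.86-fold at 48 h (98.4 CPM in PRT3789 and 281 CPM in DMSO; log2FC -1.52 ± 0.06 SE, edgeR adjusted p = 2.06e-12) and 2.53-fold at 72 h. TAGLN2, the transgelin of nonmuscle cells, fell 2.59-fold at 48 h (262 CPM in PRT3789 and 680 CPM in DMSO; log2FC -1.37 ± 0.07, adjusted p = 4.53e-11) and 2.55-fold at 72 h. SYNM, which encodes the intermediate filament protein synemin, fell 3.61-fold at 72 h (5.92 CPM in PRT3789 and 21.4 CPM in DMSO; log2FC -1.85 ± 0.17, adjusted p = 8.39e-08). The filamin genes FLNA and FLNC stood on opposite sides of 0 at 72 h, with FLNA 2.86-fold lower (adjusted p = 0.000119) and FLNC higher by a log2FC of 1.29 ± 0.24 (0.000281). Here FLNA and FLNC, and above TPM3, were picked for their kinship with a named gene after their values were seen.

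Of 33 further sarcomere and troponin genes, 32 had a row and 11 were tested. One fell at 6 h, and 3 rose and 2 fell at both 48 h and 72 h, with a median log2FC of -0.14, -0.16 and 0.17 at the 3 times. Among all tested genes 3.04% fell at 6 h, 21.2% rose and 20.9% fell at 48 h, and 21.3% rose and 22% fell at 72 h, so 3 and 2 of 11 lie near the background. With a filter of 1 CPM in 3 libraries 1 fell at 48 h and 1 at 72 h, as did 1 at 72 h with the groups fitted apart. TNNC1 encodes troponin C of slow skeletal and heart muscle, the calcium-binding partner of troponin T. It fell 4.68-fold at 48 h (21 CPM in PRT3789 and 98.3 CPM in DMSO; log2FC -2.23 ± 0.24 SE, edgeR adjusted p = 1.36e-06) and 3.94-fold at 72 h (20.4 CPM in PRT3789 and 80.3 CPM in DMSO; adjusted p = 4.14e-06). TNNT1, slow skeletal troponin T, rose at 48 h (72.8 CPM in PRT3789 and 40.1 CPM in DMSO; log2FC 0.86 ± 0.14, adjusted p = 8.42e-05) and at 72 h (58.5 CPM in PRT3789 and 33 CPM in DMSO; log2FC 0.82 ± 0.14, adjusted p = 0.000116). Under PRT3789 the troponin T genes thus stood on both sides of DMSO, with TNNT2 lower and TNNT1 higher. MYOM1, which encodes the M-band protein myomesin, rose at 72 h (10.7 CPM in PRT3789 and 5.66 CPM in DMSO; log2FC 0.92 ± 0.15, adjusted p = 5.39e-05), as did LDB3 of the Z-disc at a low level (2.05 CPM in PRT3789 and 1.23 CPM in DMSO; log2FC 0.73 ± 0.22, adjusted p = 0.0128; 0.0659 without PRT3789 72 h replicate 3). MYOZ1, another Z-disc gene, had no counts in the 6 PRT3789 libraries of 48 and 72 h, against summed counts of 61 and 44 in DMSO. At 6 h it had 2 summed counts in PRT3789 and 17 in DMSO. Its call at 6 h (edgeR adjusted p = 0.0445) was lost with DESeq2 (0.0634), with the replicate block within each time (0.111) and without any 1 of 5 of the 6 libraries (0.0881 to 0.135).

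**Figure D5:**
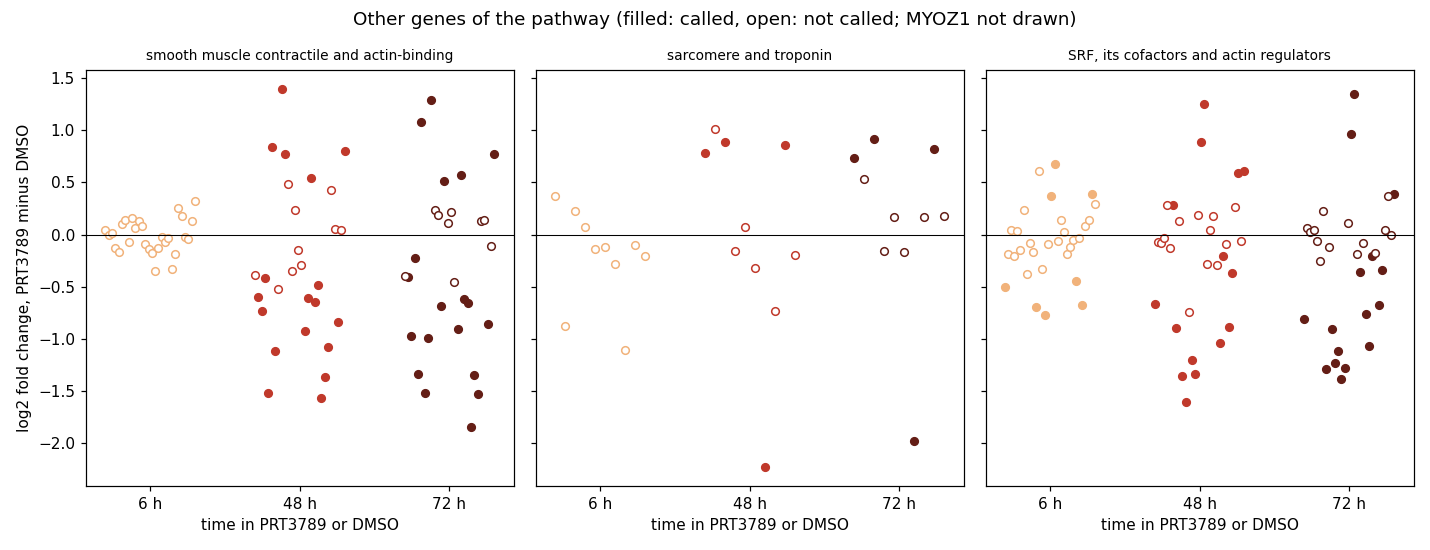
Log2 fold change of PRT3789 against DMSO (vertical axis) for the tested genes of the 3 lists at 6, 48 and 72 h, 1 point per gene, spread sideways for legibility. Filled points were called in edgeR at an adjusted p under 0.05, and MYOZ1, which had no counts in PRT3789 at 48 and 72 h, is not drawn. Called genes lie on both sides of 0 in each list at 48 and 72 h.

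Of 32 genes for SRF, its cofactors and regulators of the actin cytoskeleton, 30 were tested. In PRT3789 against DMSO, 3 rose and 5 fell at 6 h, 5 rose and 10 fell at 48 h, and 3 rose and 13 fell at 72 h. Over all tested genes 1.28% rose and 3.04% fell at 6 h; the later shares were 21.2% higher with 20.9% lower (48 h) and 21.3% higher with 22% lower (72 h). With the 6 h groups fitted apart 0 rose and 2 fell, and without DMSO 6 h replicate 1 the number that rose was 5. At 72 h 5 rose with the replicate block within each time and 5 with the groups fitted apart. The median log2FC of the 30 was -0.07, -0.09 and -0.19 at the 3 times. SRF itself was at 72.4 CPM in PRT3789 and 55.3 CPM in DMSO at 6 h (log2FC 0.39 ± 0.08 SE, edgeR adjusted p = 0.00588; 0.24 with the 6 h groups fitted apart) and was not called at 48 h (log2FC -0.06 ± 0.08, adjusted p = 0.585) or 72 h (0.00 ± 0.08, 81 CPM in both groups, adjusted p = 0.999). MRTFA had no call at 6, 48 or 72 h, its log2FC being -0.06, -0.28 and -0.19; it was called lower at 48 h without DMSO 48 h replicate 3 (-0.40, adjusted p = 0.0331) and at 72 h with the groups fitted apart (-0.20, adjusted p = 0.00397). MRTFB was lower at 72 h (27.1 CPM in PRT3789 and 34.7 CPM in DMSO; log2FC -0.36 ± 0.12, adjusted p = 0.0192). That call was lost with total counts as library sizes (adjusted p = 0.0735) and when PRT3789 72 h replicate 1 (0.053), PRT3789 72 h replicate 3 (0.118) or DMSO 72 h replicate 3 (0.0966) was left out. MYOCD, the muscle cofactor, had too few counts to be tested. SMARCA2, the target of the drug at the protein level, was at 40.5 CPM in PRT3789 and 39.4 CPM in DMSO at 6 h, and its transcript was lower at 72 h (34.8 CPM in PRT3789 and 47.2 CPM in DMSO; log2FC -0.44 ± 0.10, adjusted p = 0.00108).

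How the difference between PRT3789 and DMSO changed with time is likewise a description, and nothing is read from its calls. Of the 9 tested members, the change of the log2FC at 48 h against 6 h was called upward for 1 and downward for 5, beside 8.83% and 10.4% of all tested genes. From 48 to 72 h it was called for none by edgeR, beside 0% of tested genes, while 2 members had an unadjusted p under 0.05, and DESeq2 called 1 and limma-voom 0.

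Several regulators, named for their small p at 6 or 72 h, were called at 6 h in PRT3789 against DMSO. LIMK2, a kinase that inhibits cofilin and so stabilizes actin filaments, fell 1.71-fold at 6 h (37.6 CPM in PRT3789 and 64.2 CPM in DMSO; log2FC -0.77 ± 0.08 SE, edgeR adjusted p = 5.56e-06), 2.54-fold at 48 h and 2.43-fold at 72 h. FHL2, a LIM-only cofactor that binds SRF, fell 1.62-fold at 6 h (20.8 CPM in PRT3789 and 33.8 CPM in DMSO; log2FC -0.70 ± 0.09, adjusted p = 5.12e-05; 0.0526 with the 6 h groups fitted apart), 3.06-fold at 48 h and 2.35-fold at 72 h. RND3, which encodes an atypical small GTPase that acts on the actin cytoskeleton, fell 1.60-fold at 6 h (52.2 CPM in PRT3789 and 83.6 CPM in DMSO; log2FC -0.68 ± 0.07, adjusted p = 5.45e-06), and its fall at 72 h was 1.26-fold (adjusted p = 0.000456). The MEF2 genes encode muscle transcription factors of the same family as SRF. MEF2D rose at 6 h by a log2FC of 0.68 ± 0.10 (66.9 CPM in PRT3789 and 41.7 CPM in DMSO; adjusted p = 0.000448; 0.0806 with the 6 h groups fitted apart) and at 72 h by 1.35 ± 0.10 (131 CPM in PRT3789 and 51.5 CPM in DMSO; adjusted p = 8.08e-09). MEF2C rose at 72 h by 0.96 ± 0.09 (90.6 CPM in PRT3789 and 46.6 CPM in DMSO; adjusted p = 1.9e-07). Any order in time between these genes and the members was not tested.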

How the data were processed

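Polyadenylated RNA of 18 libraries was read as stranded pairs, per the labels. The authors trimmed reads with Trim Galore, aligned them with STAR to GRCh38 and quantified genes with RSEM inside nf-core/rnaseq 3.17.0, per the submitters' processing notes and the series' design text; versions of the single tools are not given in the sources used here. The deposited table holds expected counts, already whole numbers, for 43236 symbols. MYLPF, a gene of the sarcomere and troponin list, had no row under that symbol and so was not analysed here.

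Genes were kept by filterByExpr over the 6 groups (16291 genes), scaled by TMM, and fitted in edgeR 4.0.16 (R 4.3.3) with 1 mean per group and robust two-sided quasi-likelihood tests, adjusted by Benjamini-Hochberg over all tested genes. CPM is counts over the TMM-scaled total, and a prior count of 2 went into log2 CPM. The code was tested on simulated data. The members and the gene lists were chosen with earlier results of these data known. Named are all members, in each of the 3 pathway lists the 4 genes with the smallest p at 72 h and the 2 at 6 h, SRF, its cofactors and SMARCA2, and the 3 genes most like TNNT2 and each member called at 72 h. The reads carry no molecular identifiers, so the limits from zero counts cover counting error only. Replicate numbers were not used as pairs: the correlation of same-numbered deviations ran from -0.237 to 0.338.

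Alternatives were DESeq2 1.42.0 and its size factors, limma-voom (limma 3.58.1), total counts, other filters, a replicate block, groups fitted apart, a stricter threshold and leaving out each library. Gene positions are from GENCODE 44. TPM2 and TPM1 were compared per canonical length.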

Additional observations from a re-analysis of the deposited data

Results flagged for a closer look

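For 6 of the 9 tested members edgeR called the change of the PRT3789 effect at 48 h against 6 h. The members were chosen with these effects known, so these calls are no evidence of a difference between the times, and the values are a description. They stand beside 8.83% of all tested genes with a higher and 10.4% with a lower effect at 48 h. The log2 fold change at 48 h minus that at 6 h was -5.65 for TNNT2, -1.94 for TAGLN, -1.88 for TPM1, -0.73 for ACTN1, -0.33 for MYL9 and 0.78 for TPM2. For MYL9 and ACTN1 this was lost with total counts, with no filter, with the groups fitted apart and without any 1 of several libraries. Each of the 6 kept its direction under every alternative tried.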

How the results depend on the processing

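Of 1115 alternative values of single members, 1048 kept their direction where called and their side of the threshold, 46 were no longer called, 21 became called and 0 reversed a call. Among the 1115, 31 had the opposite sign to the main value, with neither value called. In size their main log2FC was at most 0.55 and the alternative at most 0.9. Members called lower at 6 h numbered 1 with DESeq2. Members called higher in DMSO at 48 h against 6 h numbered 1 with the groups fitted apart and 1 at an adjusted p under 0.01; at 72 h against 48 h they numbered 1 with DESeq2 and 3 fitted apart. In PRT3789 at 72 h against 48 h, members called higher numbered 0 with total counts, 2 with DESeq2, 3 fitted apart and 0 at an adjusted p under 0.01, and those called lower 0 at that threshold. For the change of the effect from 6 to 48 h, members called lower numbered 3 with total counts, 3 with no filter, 3 fitted apart and 3 at an adjusted p under 0.01; from 48 to 72 h they numbered 1 with DESeq2 and 1 fitted apart. The cause was not tested. Leaving out 1 library gave 1 to 3 members called higher and 3 lower in DMSO at 48 h, 0 higher and 0 to 1 lower in PRT3789 at 72 h against 48 h, 3 to 5 lower and 1 to 2 higher for the change of the effect from 6 to 48 h, and 2 to 3 higher and 4 to 6 lower for PRT3789 against DMSO at 48 h.

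Same-numbered libraries were not shown to be paired. With the replicate block over all groups, 2 members were called higher in PRT3789 at 72 h against 48 h; with the block within each time, 2 were called higher for the change of the effect from 6 to 48 h, and CNN2 was called lower in PRT3789 than in DMSO at 72 h (log2FC -0.34).

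Over all genes, fitting the groups apart gave 147 calls at 6 h against 705, 3384 in DMSO at 48 h against 6059, 1387 in DMSO at 72 h against 88 (541 with DESeq2), 2188 in PRT3789 at 72 h against 235 (545 with DESeq2), and 294 for the change of the effect from 48 to 72 h against 0 (95 with DESeq2). Leaving out 1 library gave 19 to 83 calls in DMSO and 91 to 121 in PRT3789 at 72 h against 48 h. Counts under about 20 per library, as TNNT2 in PRT3789, limit its fold.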
